A study of Mus musculus with 6 samples.

Results

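The small (40S) subunit of the cytosolic ribosome was examined in islets of Langerhans through the messenger RNAs of its proteins. Members were the genes whose symbol is Rps followed by a number and at most one letter and one further digit, together with Rpsa and Fau, whose products also belong to the subunit. The rule, which reads gene symbols alone, took 34 of 24407 genes in the count table. Rps4l, one of the 34, is annotated by RefSeq as a transcribed pseudogene, and Rps27l codes for a paralog of the Rps27 protein.

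The tissue was the pancreatic islet, where insulin and glucagon are made, taken from C57BL/6 mice of 2 genotypes. Mice of the first group, lmna LCS, express lamin C and no lamin A from the gene of both nuclear lamins. The second group was wild type (WT). All mice were 70 weeks old and ate regular chow, and each of the 3 libraries per genotype was made from the pooled islets of 3 mice. The libraries held 41529670 to 68036676 counts in LCS and 26123654 to 34483948 in WT. Counts per gene cannot tell the lamin isoforms apart and so do not check the genotype. Lmna had 62.0 to 78.9 CPM in LCS and 21.003 to 61.3 CPM in WT (CPM, the count relative to the size of the library, scaled by TMM, which is little moved by a few very abundant rows). The rows Rn45s, Lars2 and Mir6236, which are known to collect ribosomal RNA reads, took 52.3% to 54.1% of the LCS counts and 7.64% to 18.5% of the WT counts, and outside them the libraries held 19057533 to 32462401 and 23511554 to 28094765 counts. Of 12 islet marker genes, all 12 were found, and together they reached 193735 to 288458 CPM in LCS and 160155 to 187397 in WT, sums made up mostly of hormone genes. Single islet markers moved with genotype: Ppy, the pancreatic polypeptide of another islet cell type, was called 3.63-fold higher in LCS (edgeR adjusted p = 0.0172), and the somatostatin gene Sst was 2.98-fold higher without overlap (edgeR adjusted p = 0.103). Slc2a2, the glucose transporter of beta cells, was at -0.77 on the log2 scale (edgeR adjusted p = 0.134). Markers of exocrine acinar cells, which surround islets, moved with genotype: 19 of 21 tested were called higher in LCS, none was called lower, and their summed level was 611 to 1054 CPM in LCS and 205 to 311 CPM in WT. The part of these markers in the results below was not tested. In bulk tissue, fewer cells of a type and less RNA per cell cannot be told apart.

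The small subunit reads the messenger RNA: it binds initiation factors and initiator tRNA, scans to the start codon and pairs each codon with its tRNA. Its proteins are placed on the 18S ribosomal RNA as a head and as a body with a platform, and they enter in fixed proportion. Their mRNAs are short, abundant and typically begin with a terminal oligopyrimidine (TOP) tract, through which mTORC1 and LARP1 control their translation. In beta cells this machinery serves a large output of proinsulin.

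All 34 members passed the filter on low counts, and each of the 34 had a log2 fold change above 0, against 51.1% of all genes tested. At an edgeR quasi-likelihood adjusted p under 0.05, taken over all 14539 genes tested, 19 members were higher and 0 lower. Among all genes, 2.06% were called higher and 0.144% lower. Before adjustment, 33 members were higher at p under 0.05, as were 13.3% of all genes (10.8% were lower). The DESeq2 Wald test called 30 higher and 0 lower (6.6% of all genes were called higher by it and 4.13% lower). In 33 members every LCS library lay above every WT library, a pattern found in 14.6% of all genes tested (12% had the opposite one), and Rps2 was the exception. Tested against a change of 1.5-fold, 1 member was called, Rps20 (0.433% of all genes). The median log2 fold change of the members was 0.92, against 0.01 over all genes tested. Differences ran from 0.47 for Rps3 to 1.46 for Rps26 on the log2 scale, and 15 members differed at least 2-fold.

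The number of calls rested on single libraries. It was 20 without LCS replicate 2 (1.77% of all genes called higher), 4 without LCS replicate 1 (0.581%), 3 without LCS replicate 3 (0.547%), 6 without WT replicate 2 (0.748%), 7 without WT replicate 3 (0.931%), and 29 without WT replicate 1 (12.5%). Rps20, Rps21 and Rps27l were called in each of the 6 fits that left out a library, while the other 16 called members lost the call in at least 1 of them.

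**Figure D1:**
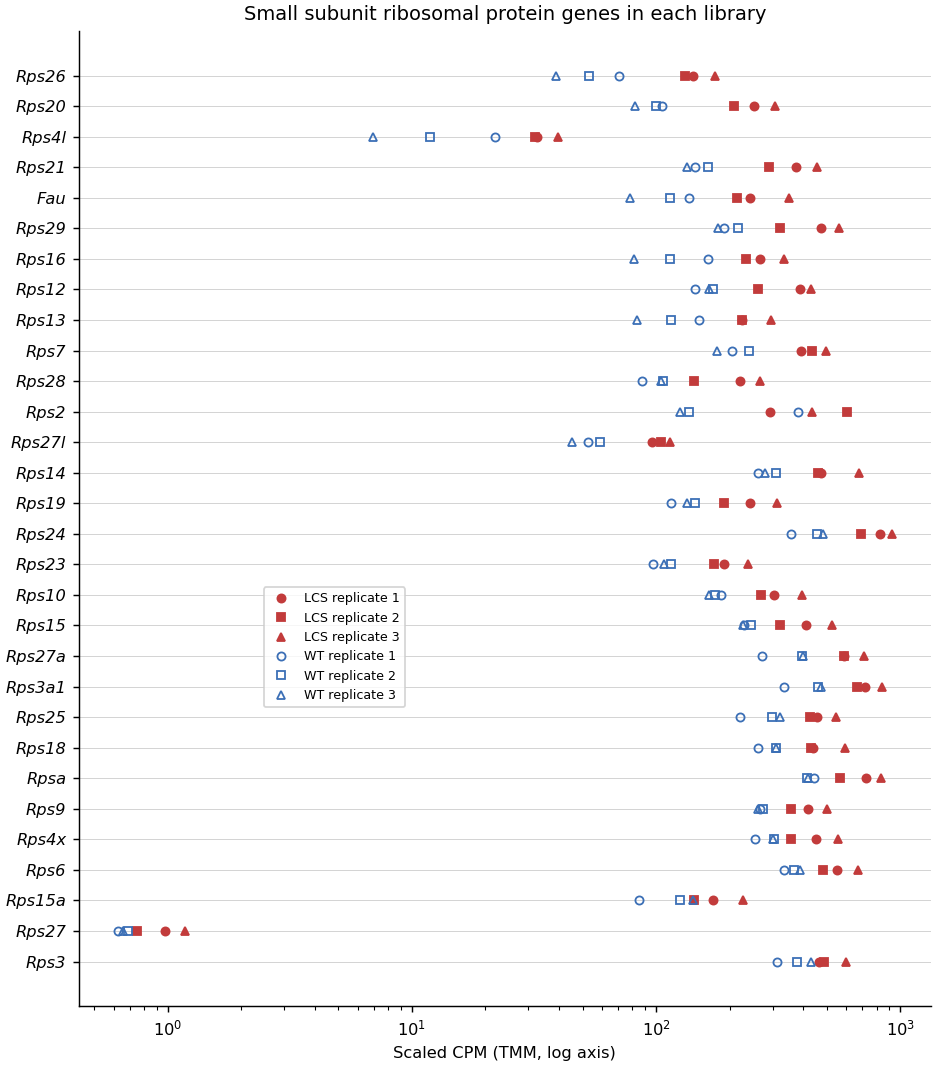
Scaled CPM (log axis) of 30 members in each library, LCS filled in red and WT open in blue, with one symbol per replicate and members ordered by fold change. The red symbols lie to the right of the blue ones in every row except that of Rps2, and Rps27 stands apart at 0.624 to 1.18 CPM.

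Together the members took 1.82%, 1.73% and 2.07% of the counts outside the ribosomal RNA rows in LCS replicates 1 to 3, and 1.13%, 1.17% and 1.14% in WT replicates 1 to 3. The LCS values did not overlap the WT values, and the WT libraries lay close together. The direction turned when ribosomal RNA rows stayed in the total. The members were then 0.837%, 0.825% and 0.953% of counts in LCS and 0.922%, 1.08% and 1.02% in WT, and the groups overlapped. Fold changes below are therefore relative to the other messenger RNAs and not to all reads. When libraries were scaled to the counts outside ribosomal RNA rows in place of TMM, the median of all genes moved from 0.01 to -0.15, that of the members was 0.75, and 7 members were called higher (0.944% of all genes).

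Within LCS the members moved together. LCS replicate 3 was the highest LCS library for 33 of 34 members and LCS replicate 2 the lowest for 28. The summed acinar markers had another order, with 611 CPM in LCS replicate 1, 1054 CPM in replicate 2 and 978 CPM in replicate 3. Within WT no library was the highest or the lowest throughout: WT replicate 1 was the lowest for 17 members and the highest for 10.

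Proteins of the head of the subunit were taken first (14 members). Of these, 10 were called higher, and log2 fold changes ran from 0.47 to 1.42 around a median of 0.96. Rps20, a head protein near the mRNA entry that is ubiquitinated when ribosomes collide, had 252, 209 and 308 CPM in LCS (replicates 1, 2 and 3, as in all such values below) and 106, 100.1 and 82.1 CPM in WT. A wide gap lay between the lowest LCS and the highest WT library. It rose 2.67-fold (log2 1.42, SE 0.18, edgeR adjusted p = 0.00561), and it was the member called in every alternative tried.

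Rps29, a small zinc-binding protein of the head, had 475, 322 and 559 CPM in LCS and 189, 217 and 179 CPM in WT, a 2.32-fold rise (SE 0.21 on the log2 scale, edgeR adjusted p = 0.0198). Rps16, whose tail reaches toward the tRNA in the P site, had 266, 233 and 333 CPM in LCS and 164, 114 and 81.1 CPM in WT. Its WT libraries differed from each other by more than its LCS libraries did in proportion. The rise was 2.32-fold (SE 0.25, edgeR adjusted p = 0.0388) and was called in 1 of the 6 fits that left out a library, the one without WT replicate 1 (log2 1.51, edgeR adjusted p = 0.00146). Rps12, a protein of the beak of the head, had 388, 263 and 429.7 CPM in LCS and 145, 171 and 165 CPM in WT, with a 2.25-fold rise (SE 0.19, edgeR adjusted p = 0.019). The groups of these 3 genes did not overlap.

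Rps28, at the mRNA exit, rose 2.11-fold (edgeR adjusted p = 0.0377). Rps19, the gene most often mutated in Diamond-Blackfan anaemia, had 242, 189.7 and 312 CPM in LCS and 116, 144 and 134 CPM in WT, without overlap, a 1.89-fold rise (SE 0.19, edgeR adjusted p = 0.0419). Its call ended in 4 of the 6 fits that left out a library. Rps10 and Rps15 rose 1.85-fold and 1.80-fold, and Rps15 lost its call in 11 of 18 alternatives. When the fit took transcript length and GC content into account through offsets, the calls of Rps28, Rps19, Rps10 and Rps15 ended and their log2 fold changes fell to 0.70, 0.48, 0.51 and 0.19 (edgeR adjusted p = 0.0562, 0.134, 0.0546 and 0.58). The head members that were not called were Rps27a, Rps25, Rps18 and Rps3, with log2 fold changes of 0.82, 0.76, 0.74 and 0.47. Of these, Rps27a and Rps25 gained a call with the length and GC offset (edgeR adjusted p = 0.0398 and 0.0364). Rps27a, made as a fusion with ubiquitin that is later cut off, had 590.3, 589.5 and 712 CPM in LCS and 273, 396 and 401 CPM in WT (SE 0.19, edgeR adjusted p = 0.054). Its groups lay apart, with WT replicate 1 far below the other WT libraries.

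Rps3, which lines the mRNA entry channel and can act in DNA repair, showed the smallest difference. It had 466, 487 and 597 CPM in LCS and 311, 378 and 433 CPM in WT, so that the lowest LCS library stood next to the highest WT library. The log2 fold change of 0.47 (SE 0.18) was not called (edgeR adjusted p = 0.151), nor was it in any alternative.

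Of 18 body and platform members, 8 were called higher, and log2 fold changes ran from 0.55 to 1.46 around a median of 0.86. Rps26, which sits at the mRNA exit and contacts bases before the start codon, changed most of all members. Its values were 141, 131 and 174 CPM in LCS and 70.4, 53.1 and 38.8 CPM in WT. The groups lay well apart, although WT varied more widely than LCS in proportion. The rise was 2.75-fold (log2 1.46, SE 0.22, edgeR adjusted p = 0.0128). Its call ended without LCS replicate 1 and without LCS replicate 3.

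Rps21, which contacts Rpsa on the platform, had 373, 290.2 and 457 CPM in LCS and 145, 163 and 133 CPM in WT, a 2.54-fold rise (SE 0.19, edgeR adjusted p = 0.0093). Fau, whose product is Rps30 joined to a ubiquitin-like protein, had 242, 214 and 351 CPM in LCS and 136, 114 and 78.03 CPM in WT. It rose 2.46-fold (SE 0.24, edgeR adjusted p = 0.0266), and the call held in 2 of the 6 fits that left out a library. Neither gene's groups overlapped. Rps13 and Rps7 rose 2.14-fold and 2.13-fold. Rps7, which as a free protein binds the p53 ligase Mdm2, was called in 5 of those 6 fits. Rps14, Rps24 and Rps23, the last of which lies at the decoding centre, rose 1.90-fold, 1.88-fold and 1.87-fold, each called in 2 of the 6 fits. With the length and GC offset Fau was at 0.79 and still called, and Rps14 was at 0.55 and not called (edgeR adjusted p = 0.0167 and 0.0752).

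The 10 body members that were not called included the 5 members with the longest coding sequences, Rpsa, Rps2, Rps3a1, Rps4x and Rps6. Rpsa, also known as a laminin receptor precursor, had 724, 565 and 836 CPM in LCS and 444, 417 and 419.6 CPM in WT (log2 0.73, SE 0.17, edgeR adjusted p = 0.0586). Rps6, the substrate of the S6 kinases downstream of mTORC1, had 550.3, 481 and 669 CPM in LCS and 333, 368 and 390.0 CPM in WT (log2 0.64, SE 0.16, edgeR adjusted p = 0.0746). The groups of both genes lay apart, although neither passed the test. Rps3a1 had 716, 666 and 842 CPM in LCS and 335, 462 and 474 CPM in WT, again without overlap and without a call (log2 0.81, edgeR adjusted p = 0.0539). With the length and GC offset Rps3a1 was called (edgeR adjusted p = 0.0303). Rps9 and Rps15a had log2 fold changes of 0.67 and 0.62. Rps15a had 170.5, 143 and 226 CPM in LCS and 85.0, 125 and 142 CPM in WT. LCS replicate 2 and WT replicate 3 nearly touched in that gene.

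**Figure D2:**
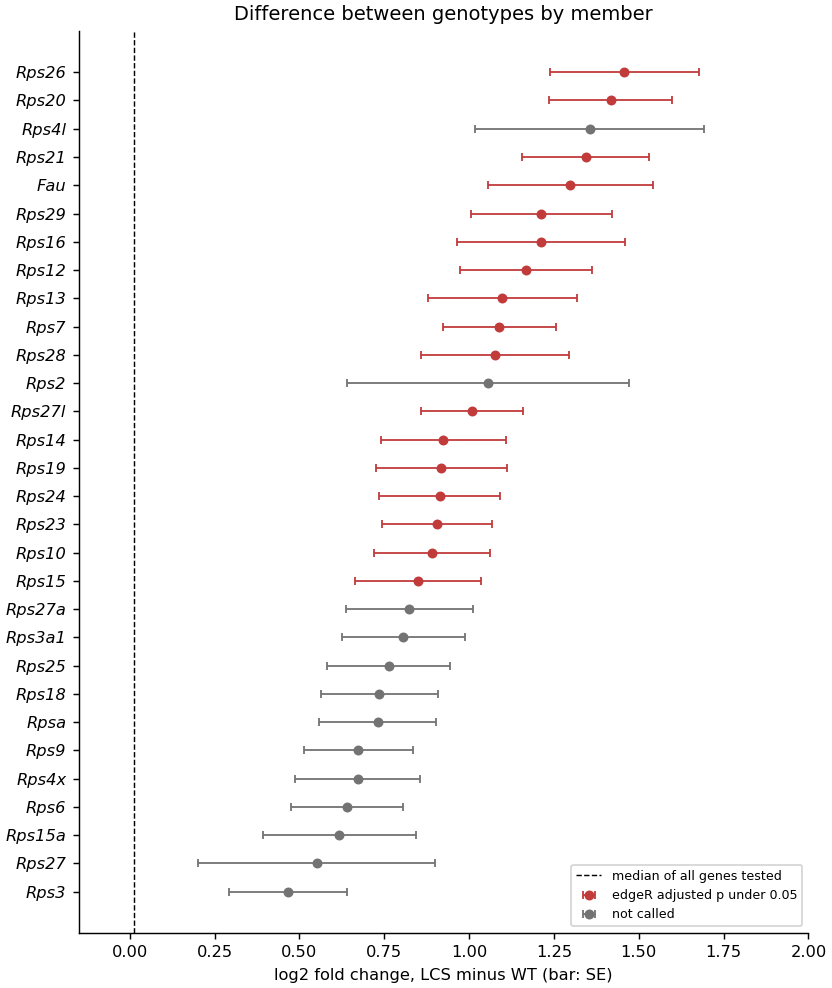
Log2 fold change (LCS minus WT, bars give the SE) of 30 members, drawn red for called members and grey for the others. Values go from 1.46 for Rps26 to 0.47 for Rps3, and the dashed line marks the median of all genes tested at 0.01.

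Rps2, a body protein at the mRNA entry, had the largest SE of all members. It had 293, 604 and 437 CPM in LCS and 380.4, 136 and 125 CPM in WT. WT replicate 1 lay above LCS replicate 1, and the groups overlapped. The log2 fold change was 1.06 (SE 0.42, edgeR adjusted p = 0.165). Without WT replicate 1 it was 1.77 (edgeR adjusted p = 0.00222), and without LCS replicate 2 it was not called (edgeR adjusted p = 0.287).

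The paralogs formed 2 pairs. Rps27l, a p53-induced relative of Rps27, had 96.4, 105 and 114 CPM in LCS and 52.8, 58.7 and 45.2 CPM in WT. The groups were far apart and each was narrow. It rose 2.01-fold (log2 1.01, SE 0.15, edgeR adjusted p = 0.0123). Rps27 itself had 0.979, 0.746 and 1.18 CPM in LCS and 0.624, 0.691 and 0.653 CPM in WT, from 28, 38, 37, 30, 28 and 25 counts. Its log2 fold change of 0.55 (SE 0.35) was not called (edgeR adjusted p = 0.357). In GENCODE M21 every 50-base word of the Rps27 coding sequence also occurs in coding transcripts of other genes. The copy Rps27rt is one of these, and it had 0 counts in the 6 libraries. How reads with several matches were treated is not stated, so the low level of Rps27 is a property of these counts and may not be that of the gene.

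Rps4x, the X-linked gene of the Rps4 protein, had 453, 357 and 557 CPM in LCS and 254, 303 and 301 CPM in WT (log2 0.67, SE 0.18, edgeR adjusted p = 0.0852). It was called with the length and GC offset (edgeR adjusted p = 0.04955). The transcribed pseudogene Rps4l had 32.7, 31.8 and 39.8 CPM in LCS and 21.8, 11.9 and 6.95 CPM in WT. The 3 WT libraries of Rps4l spread over a wider range than the LCS ones, and its log2 fold change of 1.36 (SE 0.34) was not called (edgeR adjusted p = 0.0673). Without WT replicate 1 it was called, at 1.88 (edgeR adjusted p = 0.000903).

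How far the members kept their proportions was described by the share of each in the summed counts of all 34, with no test. In 4 members (Rps26, Rps20, Rps21 and Rps12) every LCS library had a larger share than every WT library, in 8 a smaller one, and in 22 the groups overlapped. No rate over all genes was worked out for this measure. For scaled CPM, 14.6% of all genes tested had every LCS library above every WT library, and 12% had the opposite. The shares are parts of the same total, so a rise in some brings a fall in others. Rps26 was 1.17% ± 0.0181 of the small subunit total in LCS and 0.787% ± 0.258 in WT, and Rps20 was 2.01% ± 0.0963 and 1.39% ± 0.212 (SD, n = 3). On the other side, Rps3 was 4.07% ± 0.309 in LCS and 5.39% ± 0.755 in WT, and Rps6 was 4.45% ± 0.0796 and 5.25% ± 0.302. Genes with a smaller share still had a higher scaled CPM in LCS. Other members held their place. Rps23 took 1.57% ± 0.0079 in LCS and 1.54% ± 0.0668 in WT, and Rps10 took 2.53% ± 0.101 and 2.53% ± 0.239.

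WT replicate 1 had a composition unlike the other WT libraries. Rps2 was 5.76% of its small subunit counts, against 1.89% and 1.79% in WT replicates 2 and 3, and 2.41%, 5.48% and 2.90% in the LCS libraries. Rps16 was 2.48% there against 1.59% and 1.16%, and Rps13 was 2.26% against 1.60% and 1.19%. The LCS libraries had 2.12% to 2.21% for Rps16 and 1.85% to 2.04% for Rps13, between these WT values. On the low side, Rps15a was 1.29% in WT replicate 1 against 1.73% and 2.04%.

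**Figure D3:**
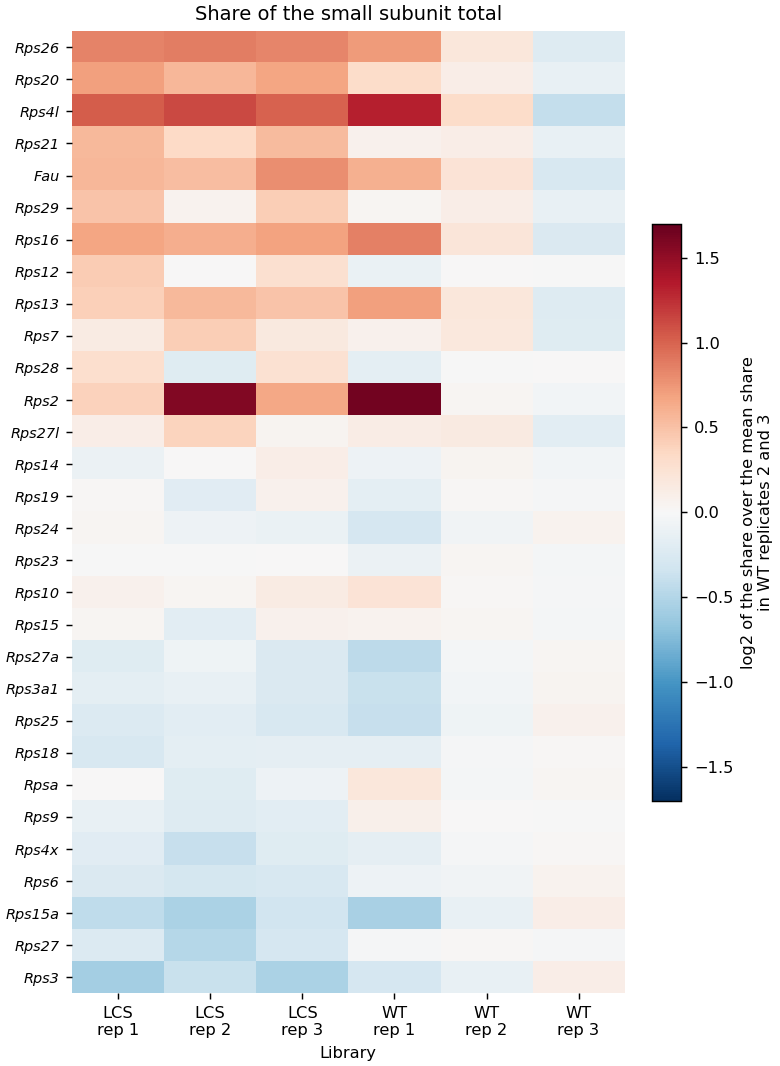
Share of each of 30 members in the summed counts of all 34 in each library, as the log2 of the share over its mean in WT replicates 2 and 3, red for higher and blue for lower. The column of WT replicate 1 is red at Rps2, Rps4l, Rps16, Rps13 and Rps26, as are columns of LCS libraries, and Rps3 is blue in the LCS columns.

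Levels were compared between members per kilobase of coding sequence, which GENCODE M21 gave for 33 members (168 to 885 nt, median 438 nt). The counts are per gene and may include reads outside the coding sequence, so the ranks depend on the length used. Levels per kilobase of whole transcript were not computed. Rps29 was the most abundant on this scale, at 2690 ± 716 CPM per kb in LCS and 1160 ± 117 in WT, followed by Rps24 at 2036 ± 294 and 1082 ± 164 (SD, n = 3). The WT values of these 2 genes overlapped. Rps29 has the shortest coding sequence, at 168 nt, while its transcripts had a median of 425.5 nt. For Rps24 these lengths were 399 nt and 729.5 nt. Rps27a and Rps25 came next in WT at 761 ± 155 and 749 ± 142 CPM per kb, a difference well within their spread. Apart from Rps27, the lowest in WT included Rps26 at 157 ± 45.8 and Rps27l at 207 ± 26.8 CPM per kb. Rps21 was the seventh in WT and the third in LCS, at 1499 ± 335 CPM per kb, and Rps3 the eleventh in WT and the eighteenth in LCS, at 708 ± 96.5.

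Transcript length moved with genotype in the whole data set, and the members are short. Their GENCODE transcripts had medians of 387 to 1054 nt, against a median of 1514 nt over the other protein-coding genes tested. Among 286 protein-coding genes of at most 500 nt outside the cytosolic ribosomal proteins, the median log2 fold change was 0.33 and 11.9% were called higher. In the same class 7 of 8 members were called, with a median of 1.08. Among 4329 other genes of over 500 to 1000 nt the median was 0.14 and 2.91% were called, and among the 25 members of that class 11 were called with a median of 0.85. With an offset for transcript length 4 members were called higher and 0 lower (0.551% of all genes higher), Rps26, Rps20 and Rps21 among them, with a median of 0.71 over 33 members. With GC content added to the offset 17 were called (3.11% of all genes), with a median of 0.70.

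Across 33 members, which share libraries and depth, the fold change went with coding length at Pearson r = -0.42 and Spearman rho = -0.463. It went with GC content of the coding sequence at r = 0.277 and rho = 0.289. Without Rps27 and Rps2, the 31 left gave r = -0.582 and rho = -0.62 for length. For GC content they gave r = 0.255 and rho = 0.26. The 2 members left out lie against the trend with length: Rps2 (879 nt) was at 1.06 and Rps27 (252 nt) at 0.55. GC content also went with the distance of WT replicate 1 from the other 2 WT libraries (r = 0.491, rho = 0.477). The shorter coding sequences tended to the larger fold changes, with Rps26 (345 nt) and Rps20 (357 nt) at the top and Rpsa (885 nt), Rps3a1 (792 nt) and Rps4x (789 nt) among the smaller ones. Rps7 (582 nt) was long for its fold change.

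**Figure D4:**
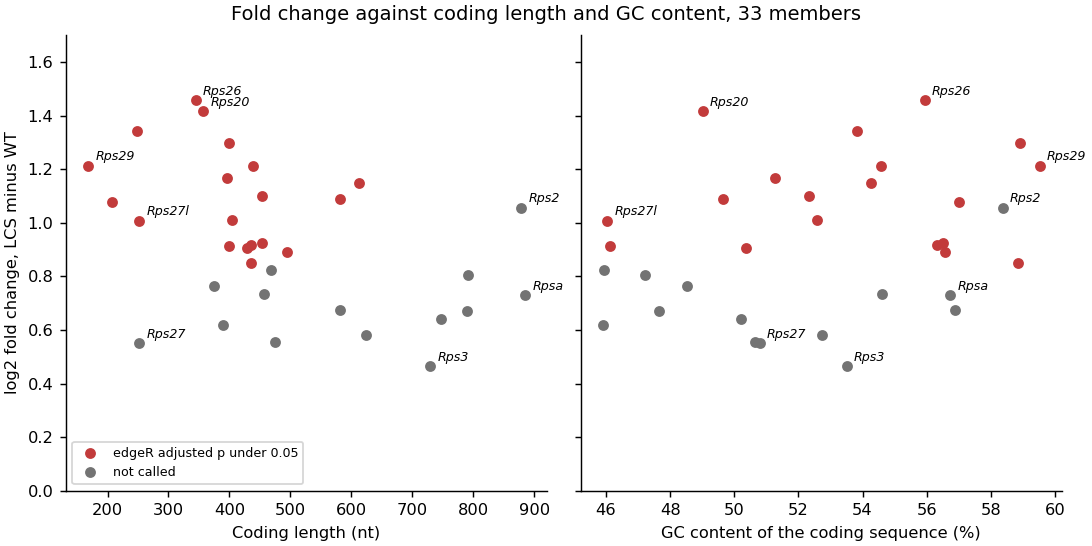
Log2 fold change (LCS minus WT) of 33 members against the length (nt, left) and the GC content (%, right) of their coding sequence, called members in red. Points fall with length (r = -0.42), and Rps26 and Rps20, with 345 and 357 nt, lie highest.

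Many members share sequence with other annotated genes, processed pseudogenes among them. How the counting treated such reads is not given in the sources used here, and its effect on single members was not tested. The coding sequences of 11 of 33 members occur entirely, in words of 50 bases, in transcripts of other annotated genes, and 26 share over 50% of their words. Rps3 shared 8.09%, so few reads of its coding sequence can match another annotated gene, and it had the smallest log2 fold change of all members (0.47, not called). Over the 33 members the shared part went with fold change at r = 0.107 and rho = 0.134.

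Starts are shown for 8 members, chosen after their values were seen to include called and uncalled ones, because the tract that defines TOP mRNAs lies there. RefSeq windows on GRCm38.p6 matched 25 of the 34 members, whereas mm9 is the build the submitters name. Each sequence below runs 5′ to 3′ from 40 bases before the RefSeq start to 20 bases after it, and capitals mark the longest run of C and T among those that end later than 20 bases before the start. Of equally long runs, as in Rps7, the one that begins nearest to the start is marked, and the later one at equal distance. For Rps21 the first of 2 RefSeq starts is shown. The first 5 members were called higher and the last 3 were not.
Rps26 (chr10:128626487-128626546, minus strand): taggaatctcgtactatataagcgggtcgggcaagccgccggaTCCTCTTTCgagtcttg
Rps21 (chr2:180257339-180257398, plus strand): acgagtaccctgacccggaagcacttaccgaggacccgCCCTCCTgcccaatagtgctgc
Fau (chr19:6057907-6057966, plus strand): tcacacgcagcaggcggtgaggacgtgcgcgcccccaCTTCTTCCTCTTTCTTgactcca
Rps12 (chr10:23787190-23787249, minus strand): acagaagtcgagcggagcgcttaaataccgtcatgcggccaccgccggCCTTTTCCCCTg
Rps7 (chr12:28635934-28635993, minus strand): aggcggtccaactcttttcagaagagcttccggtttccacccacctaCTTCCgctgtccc
Rps6 (chr4:86857348-86857407, minus strand): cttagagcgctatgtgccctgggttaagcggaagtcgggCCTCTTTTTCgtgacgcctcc
Rps9 (chr7:3704001-3704060, plus strand): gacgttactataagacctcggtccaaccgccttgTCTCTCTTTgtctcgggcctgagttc
Rps3 (chr7:99483690-99483749, minus strand): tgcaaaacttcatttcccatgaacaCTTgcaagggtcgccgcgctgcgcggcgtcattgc

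The printed starts differ in where the run lies: it spans the annotated start in Fau and Rps6 and lies after it in Rps26 and Rps12, while Rps3 has no run longer than 3 bases from 20 bases before its start to the end of the stretch. Runs of at least 8 pyrimidines (any mix of C and T) between 20 bases before and 30 bases after the RefSeq start were present on the sense strand in 13 of 25 members (52%), against 22.2% of 11446 tested genes with a window. On the other strand such a run was present in 0 of 25 members and 23.9% of tested genes. A C at the start itself, followed by at least 4 pyrimidines, was present in 7 of 25 members and 3.005% of tested genes. The 13 members with the longer run had a median log2 fold change of 0.89, with 7 called, and the 12 without it 0.91, with 7 called. Members with and without the run thus had nearly the same median. In Rps7 the run of at least 8 reaches past the printed stretch. These matches describe letters near an annotated start, not a measured start of transcription.

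Among lists of related genes, the partner proteins of the large subunit had the median nearest to that of the members. Of 48 tested large subunit genes 25 were called higher and 0 lower by edgeR. Over all genes tested the edgeR shares were 2.06% and 0.144%, here and for the lists below. Every LCS library lay above every WT library in 45 of the 48 (14.6% of all genes). Before adjustment 45 were higher at p under 0.05 and 0 lower (13.3% and 10.8% of all genes). DESeq2 called 41 higher and 0 lower (6.6% and 4.13% of all genes). The log2 fold changes ran from -0.17 to 1.66 around a median of 0.82. The gene at -0.17 had only 0.319 to 0.648 CPM in LCS and 0.370 to 0.624 CPM in WT and was not called (edgeR adjusted p = 0.843). On the log2 scale Rpl35 rose by 1.17, Rpl36a by 1.27, Rpl13a by 1.26 and Rpl31 by 1.14 (edgeR adjusted p = 0.00711, 0.00741, 0.0123 and 0.0124). For the small subunit of the mitochondrial ribosome, which is built from nuclear genes of its own, 2 of 33 were called higher and 0 lower, with a median of 0.71. These were Chchd1 (1.76-fold) and Mrps33 (1.69-fold), while Mrps16 and Mrps11 had log2 fold changes of 0.80 and 0.71 (edgeR adjusted p = 0.054 and 0.0602). In 23 of the 33 every LCS library lay above every WT library (14.6% of all genes). Before adjustment 23 were higher at p under 0.05 and 0 lower (13.3% and 10.8% of all genes). DESeq2 called 17 of this list higher and 0 lower (6.6% and 4.13% of all genes).

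Factors that act on the subunit had medians nearer to 0. Of 29 tested initiation factors that bind it, 2 were called higher and 0 lower, with a median log2 fold change of 0.19. The list went both ways: before adjustment 9 were higher at p under 0.05 and 4 lower (13.3% and 10.8% of all genes). DESeq2 called 5 of them higher and 1 lower (6.6% and 4.13% of all genes). Eif1, which monitors start codon choice, rose 1.83-fold, and Eif3k, a subunit of the eIF3 scaffold, rose 1.66-fold (edgeR adjusted p = 0.0423 and 0.0336). Eif3h was at 0.82 and Eif5, which triggers GTP hydrolysis at the start codon, at -0.57, neither called (edgeR adjusted p = 0.0655 and 0.0697). Of 50 tested factors that assemble the subunit in the nucleolus and cytoplasm, 0 were called by edgeR in either direction, and the median was 0.01. At an unadjusted p under 0.05, 8 of 50 were higher and 1 lower, near the 13.3% of all genes for the higher ones and below the 10.8% for the lower ones, and DESeq2 called 3 higher and 0 lower (6.6% and 4.13% of all genes). Those with the smallest p were Imp3 at 0.83, Rcl1 at 0.74, Emg1 at 0.48 and Utp3 at 0.46 (edgeR adjusted p = 0.0798, 0.0987, 0.112 and 0.114).

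Other mRNAs known to carry a TOP tract lay between. Of 20 tested, 2 were called higher and 1 lower, with a median of 0.44. Before adjustment 11 of the 20 were higher at p under 0.05 and 1 lower (13.3% and 10.8% of all genes). DESeq2 called 7 of them higher and 1 lower (6.6% and 4.13% of all genes). Tpt1, the translationally controlled tumour protein gene, rose 2.06-fold, with means of 945 ± 101 CPM in LCS and 458 ± 90.6 CPM in WT (SD, n = 3, edgeR adjusted p = 0.021). Hnrnpa1, an RNA-binding protein gene, was lower in LCS by 1.02 on the log2 scale, with 5.42, 6.30 and 7.18 CPM in LCS and 9.88, 12.4 and 16.1 CPM in WT (edgeR adjusted p = 0.043). Its level was the lowest among the 20. How reads with several matches were treated is not stated, and their part in this row was not tested. Eef1b2 was at 0.62 (edgeR adjusted p = 0.0637). In the list of S6 kinases, mTORC1 and growth control of ribosomes 0 of 27 were called by edgeR in either direction, with a median of -0.06. At an unadjusted p under 0.05, 2 of 27 were higher and 3 lower, and DESeq2 called 0 higher and 1 lower, shares close to or below those of all genes (13.3% and 10.8%, and 6.6% and 4.13%). The genes with the smallest p, Rps6ka3, Rps6kb1, Eif4ebp1 and Akt1s1 were at -0.83, -0.50, 1.20 and 0.69 (edgeR adjusted p = 0.0741, 0.135, 0.147 and 0.147).

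The calls of Chchd1, Mrps33, Eif1, Eif3k, Tpt1 and Hnrnpa1 ended with the length offset (edgeR adjusted p = 0.107, 0.114, 0.0959, 0.0944, 0.0523 and 0.0709). They also ended in each fit that left out LCS replicate 1 or 3 or WT replicate 2 or 3. Eif3k was at 0.43 with the length and GC offset and not called (edgeR adjusted p = 0.0722), and Rpl35 at 0.67, still called. In that fit Chchd1, Mrps33, Eif1, Tpt1 and Hnrnpa1 were called (edgeR adjusted p = 0.0227, 0.0179, 0.044, 0.0179 and 0.0373).

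**Figure D5:**
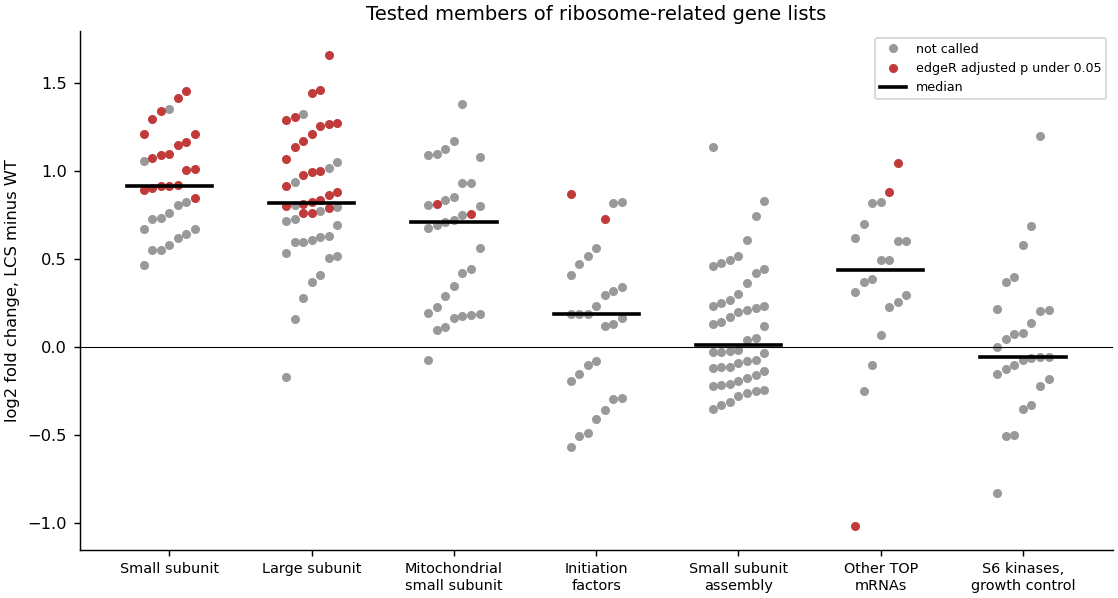
Every tested gene of the small subunit and of 6 related lists, placed by its log2 fold change between LCS and WT, with called genes in red and black bars at the medians. These are 0.92 for the small subunit, 0.82 for the large subunit and 0.71 for the mitochondrial small subunit, and 0.01 for assembly factors.

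Some members host small nucleolar RNAs (snoRNAs) in their introns, which guide modification of ribosomal RNA and are released when the host transcript is spliced. GENCODE places 19 snoRNA genes inside 10 members. Of these, 12 had a row in the count table, 7 were tested, and 4 were called higher. Snord15b, inside Rps3, had 54.8, 92.03 and 58.9 CPM in LCS and 6.69, 4.81 and 8.88 CPM in WT, a 10.1-fold rise (edgeR adjusted p = 0.000331). Snord15a, also inside Rps3, rose 12.3-fold (edgeR adjusted p = 0.00386), whereas Rps3 had the smallest fold change of all members. Snora64, inside Rps2, rose by 2.35 on the log2 scale (edgeR adjusted p = 0.041). Snora33 and Snord100, inside Rps12, were at 0.07 and 0.65 and were not called (edgeR adjusted p = 0.937 and 0.377). Mature snoRNAs carry no poly(A) tail. The rise of the 4 called went with the larger share of ribosomal RNA rows in LCS, another RNA without such a tail, and the part of that share in it was not tested. Whether reads over a snoRNA were kept apart from its host is not given in the sources used here.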

How the data were processed

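The deposited values were raw counts per gene from poly(A) RNA of 6 islet libraries (TRIzol, stranded TruSeq kit, per the labels' protocols), in 1 table. HTSeq 0.9.0, TopHat2 2.1.1, Bowtie2 2.2.9, bcl2fastq 2.20, FastQC and the build mm9 appear in the submitters' processing notes, without roles. For the annotation, the strand setting and reads with several matches, the choice is not given in the sources used here. Columns were matched to samples by the number and genotype in the titles, and replicates were numbered in accession order. The tests used edgeR 4.0.16 in R 4.3.3: filterByExpr, TMM, and a quasi-likelihood fit with genotype as its only term over all 6 libraries. P-values were adjusted by Benjamini-Hochberg over all genes and called under 0.05. Steps were tested on simulated data.

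The members and the lists were chosen with earlier results of these data known. Members given with every library's value were the 8 called with the largest fold change, the 6 uncalled with the smallest, paralogs, ubiquitin-like fusions, Rps6, Rps19 and Rpsa; Rps2 was added after its values were seen. Of related lists, up to 4 genes with the smallest p are named. The placing in head and body was set afterwards from textbook knowledge. A list of intronic snoRNAs written from memory was replaced by those GENCODE M21 places inside members. Coding sequences were those of principal transcripts. Alternatives included DESeq2 1.42.0 and limma-voom (limma 3.58.1), and loess offsets (span 0.5) per library for median transcript length and GC content. Each library is a pool of separate mice, and the depth is 26123654 to 68036676 counts. Some members and related genes that these rules take are not reported here singly; they stay in every count and median.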

Additional observations from a re-analysis of the deposited data

How the results depend on the processing

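No member changed direction under any of the 18 alternatives, and member log2 fold changes stayed between 0.18 and 2.32. Of the 19 called members, Rps20 was called in each alternative. Among the 15 members not called, 3 were called in none and 12 in at least 1. The cause of the moves below was not tested. Leaving out each library in turn gave 3 to 29 members and 81 to 1857 genes called higher, 1 to 1142 genes called lower, and member medians of 0.76 to 1.04. The DESeq2 Wald test called 30 members higher, and 919 genes higher and 575 lower. With no filter on low counts 560 genes were higher and 126 lower, out of more genes tested. The length offset gave 4 members, 75 genes higher and 4 lower, and a member median of 0.71. The length and GC offset gave 234 genes lower and a median of 0.70, with 17 members called. A test against a 1.5-fold change called 1 member, 63 genes higher and 0 lower. Leaving out WT replicates 1 and 2 together, with the lone WT library assumed to vary like LCS, gave 884 genes higher and 331 lower. Scaling to counts outside the ribosomal RNA rows, chosen after seeing the data, called 7 members and 137 genes higher. It moved the median of all genes from 0.01 to -0.15 and that of the members to 0.75. Of related genes, the Zmat3 log2 fold change turned from -0.349 to 0.0273 with the length and GC offset. No paired analysis was possible because the labels give no number shared between genotypes. The test of Rps27 rests on 25 to 38 counts per library, and the cause of these low counts was not tested.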

Other observations

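Annotated copies of members outside the rule gave a further view, chosen after their values were seen. Rps15a-ps6, a processed pseudogene of Rps15a, had 5.87, 3.34 and 5.07 CPM in LCS and 0.291, 0.691 and 0.366 CPM in WT. Its log2 fold change of 3.40 (SE 0.38, edgeR adjusted p = 0.00261) stood against 0.62 for Rps15a, of whose coding words 84.2% occur in other annotated transcripts. Rps19-ps3 was at 0.95 (edgeR adjusted p = 0.162), close to the 0.92 of Rps19. Whether reads of the parent genes were counted in these rows was not tested.

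Genes of ribosome stress and p53 were set as a list because free small subunit proteins can act on Mdm2. Of 14 tested, 2 were called higher and 0 lower by edgeR (2.06% and 0.144% of all genes), with a median log2 fold change of 0.18. Before adjustment 2 were higher at p under 0.05 and 2 lower (13.3% and 10.8% of all genes). DESeq2 called 2 higher and 1 lower (6.6% and 4.13% of all genes). The 2 called by edgeR were Rps27l, itself a member, and Bax, which promotes apoptosis, at 1.69-fold (edgeR adjusted p = 0.0444). The call of Bax ended in 5 of the 6 fits that left out a library and with the length offset, and with the length and GC offset its log2 fold change of 0.76 fell to 0.26 (edgeR adjusted p = 0.0913 and 0.25). Trp53inp1 was at -0.74 and Zmat3 at -0.35, neither called (edgeR adjusted p = 0.129 and 0.207). In the list of snoRNAs written from memory 5 of 8 tested were called higher and 0 lower, but the annotation does not place all of them inside members.

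Of other marker lists, 1 of 10 tested blood and immune markers was called higher (Lyz2, 2.79-fold, edgeR adjusted p = 0.0142) and 0 lower. By edgeR 0 of 7 duct markers and 0 of 11 endothelial and stromal markers were called; at an unadjusted p under 0.05 each list had 1 higher and 0 lower, and DESeq2 called 0. Their summed levels were 598 to 703 CPM in LCS and 370.5 to 694 in WT for duct markers. For endothelial and stromal markers they were 163 to 203 CPM in LCS and 143 to 224 in WT.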
